A study of Mus musculus with 48 samples.

Results

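The genes described here were 10 imprinted genes of the mouse, Igf2, Mest, Peg3, Dlk1, Plagl1, Ndn, H19, Meg3, Cdkn1c and Grb10. They were chosen by name, with earlier results of these data known. All 10 were among the 22173 genes of a count table of gonadal somatic cells at 4 stages, 8 of the 10 among the 13682 genes of an FPKM table (fragments normalised to transcript length and library size) of induced cells, and all 10 among the 32285 genes of a droplet single-cell table. H19 and Meg3 were not analysed in the FPKM table. The study asked how embryonic gonadal somatic cells, which surround germ cells as they enter meiosis, change with age, and how closely cells induced from embryonic stem cells come to them.

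All samples came from C57BL/6 mice or from cells of that strain. Somatic cells, from which germ cells had been removed with an antibody to SSEA1, were taken from female gonads at E12.5, E13.5 and E16.5 and from the ovary at 6 weeks after birth (P6w), with 2 libraries per stage. Female embryonic stem cells (ESCs), grown with LIF and kinase inhibitors, were induced for 24 h or 48 h without added molecules (Con), with vitamin C (Vc), with AM580, an agonist of the retinoic acid receptor RARα, or with both (V580), with 2 libraries per group. Cells induced with V580 were also collected at D4, D6, D8 and D10 and set beside gonadal cells from E12.5 female gonads (E12.5_GC), with 3 libraries per group. The droplet library held V580 cells of day 6, as 1 sample. The labels name separate samples but not separate animals or cultures, so p-values measured the spread between these samples, which may be technical.

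Imprinted genes are transcribed mainly from the copy inherited from a particular parent, because the copies carry different DNA methylation at control regions set in the germ line. Many act on fetal growth: paternally expressed members tend to promote it and maternally expressed members to restrain it, and several are transcribed strongly in the embryo and little after birth. Germ cells in the fetal gonad erase these marks, whereas the somatic cells around them keep them. The libraries came from 1 inbred strain, so the parental copies could not be told apart and all values are the sum of both.

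On the GRCm38 assembly, 5 of the 10 genes lie on chromosome 7. These are Peg3 (chr7:6703892-6730431, minus strand), Ndn (chr7:62346569-62350262, plus strand), the neighbours H19 (chr7:142575529-142578143, minus strand) and Igf2 (chr7:142650766-142666816, minus strand), and Cdkn1c (chr7:143458339-143461050, minus strand). Dlk1 (chr12:109452823-109463336) and Meg3 (chr12:109541001-109571726) are neighbours on the plus strand of chromosome 12. Mest (chr6:30723547-30748465) and Plagl1 (chr10:13060504-13131694) lie on plus strands and Grb10 (chr11:11930508-12038683) on the minus strand. H19 and Meg3 are annotated as long intergenic non-coding RNAs and the other 8 as protein-coding. The library kit does not mark strand and some annotated genes overlap the members: Copg2 overlaps the end of Mest on the opposite strand, Gm26906 overlaps Meg3 on the opposite strand, and Igf2 shares bases with Gm49394 on its own strand and with Igf2os on the other. Counts of these members are uncertain to that extent.

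Sequences around the start sites are shown for the 4 genes that rose together with AM580 at 48 h, because their windows could be compared for the hexamer TGCCGC, which the imprint-keeping zinc finger protein ZFP57 recognises in methylated form. RefSeq windows on GRCm38.p6, each with 250 bases before and 50 bases after an annotated transcript start, were found for 8 of the 10 genes, in 15 windows; H19 and Cdkn1c had none. The capitals mark TGCCGC read on either strand (GCGGCA as printed), 5′ to 3′ on the strand of the gene. Only windows that hold the hexamer are printed.
Mest, chr6:30737800-30738099, plus strand: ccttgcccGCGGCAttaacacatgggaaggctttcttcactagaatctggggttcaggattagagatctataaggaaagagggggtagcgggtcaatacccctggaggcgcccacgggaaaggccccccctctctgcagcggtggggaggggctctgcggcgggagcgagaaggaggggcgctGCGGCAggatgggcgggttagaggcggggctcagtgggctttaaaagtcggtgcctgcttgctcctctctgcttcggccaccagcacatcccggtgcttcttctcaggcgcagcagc
Grb10, chr11:12037371-12037670, minus strand: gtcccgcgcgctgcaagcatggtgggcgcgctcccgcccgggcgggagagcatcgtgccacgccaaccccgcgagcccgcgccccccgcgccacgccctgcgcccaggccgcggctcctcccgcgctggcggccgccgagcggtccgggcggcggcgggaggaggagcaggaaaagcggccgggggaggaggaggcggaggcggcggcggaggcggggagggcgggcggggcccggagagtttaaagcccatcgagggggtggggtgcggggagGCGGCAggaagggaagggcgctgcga
Plagl1, chr10:13090582-13090881, plus strand: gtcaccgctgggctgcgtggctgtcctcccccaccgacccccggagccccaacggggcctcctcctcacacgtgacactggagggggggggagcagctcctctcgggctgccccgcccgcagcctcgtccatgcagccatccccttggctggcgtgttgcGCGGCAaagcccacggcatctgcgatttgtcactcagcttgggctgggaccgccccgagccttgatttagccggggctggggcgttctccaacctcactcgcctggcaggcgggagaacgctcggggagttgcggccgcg
Igf2, chr7:142661222-142661521, minus strand: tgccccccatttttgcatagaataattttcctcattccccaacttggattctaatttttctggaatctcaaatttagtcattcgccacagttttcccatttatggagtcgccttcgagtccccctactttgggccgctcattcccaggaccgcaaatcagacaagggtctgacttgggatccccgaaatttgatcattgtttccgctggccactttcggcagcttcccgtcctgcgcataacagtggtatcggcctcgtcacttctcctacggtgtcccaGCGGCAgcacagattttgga
The hexamer occurred in 6 of the 15 windows, which belonged to 5 genes, Meg3 being the fifth, while 11.6% of all 32851 windows of 300 bases held it. The Mest window held 2 copies, as did a second Mest window that starts 3 bases later, and 1.53% of all windows held 2 or more. CpG counts in the printed windows were 45 for Grb10, 26 for Plagl1, 17 for Mest and 14 for Igf2, against a median of 7 over all windows, of which 26.5% held at least 20. The 9 member windows without the hexamer held 1 to 24 CpG. Among them were other windows of Igf2 (7, 24 and 2 CpG), Grb10 (9 CpG) and Mest (8 CpG), so the printed windows do not stand for every start site of these genes. No window of Peg3, Dlk1 or Ndn held these letters. A match describes the sequence only, and no methylation or binding was measured here.

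Stage levels are given as CPM, a gene's count relative to the TMM-scaled total of its library. Total counts were 12694769 to 22259044 per stage library, and the FPKM libraries held 16443000 to 28313000 fragments as recovered from the values. The E16.5 libraries differed from each other more than those of the other stages, with a chi-square of 37.9 per degree of freedom against 6.02 to 6.93, and they were sequenced on different lanes. The 12 markers of gonadal somatic cells summed to 1481 to 2734 CPM at the 4 stages. The E12.5 libraries, labelled female, held 8.40 to 9.50 CPM of 4 Y-linked genes against at most 0.254 CPM at the other stages, and 7 adult granulosa cell markers summed to 37470 to 37480 CPM at P6w against at most 259.7 CPM in the fetus.

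At E12.5 all 10 genes were well expressed, and per kilobase of exon H19 was the highest at 850 CPM. It was followed by Cdkn1c (246), Mest (185), Igf2 (171), Ndn (117), Peg3 (85.3), Meg3 (34.2), Grb10 (21.4), Dlk1 (20.9) and Plagl1 (8.49), each in CPM per kilobase. The libraries of neighbours in that order did not overlap except for those of Grb10 and Dlk1. At P6w the order was different, with Ndn the highest at 31.2 CPM per kilobase, then Meg3 (22.5), H19 (10.1) and Plagl1 (7.96), and the other 6 between 0.637 and 2.26.

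**Figure D1:**
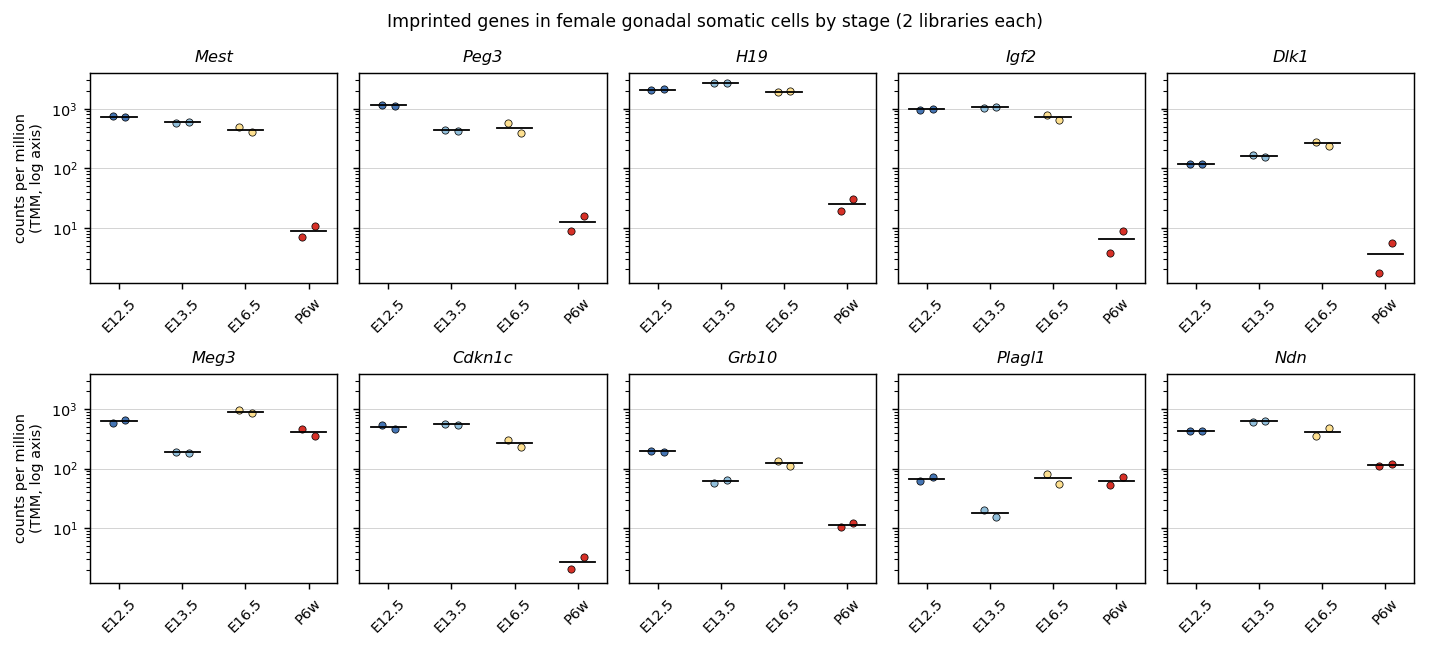
Level of each gene in CPM (log axis) in the 2 libraries of each stage; points are libraries and horizontal lines are means. Plagl1 and Meg3 stayed within the fetal range at P6w, while Mest, Peg3, H19, Igf2, Dlk1, Cdkn1c, Grb10 and Ndn were below every fetal library.

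Among the paternally expressed genes, Igf2, Mest, Peg3 and Dlk1 were far lower in the adult ovary than at any fetal stage, Ndn was lower to a smaller extent, and Plagl1 was at a like level. Igf2, which encodes a fetal growth factor that signals through the IGF1 receptor, was at 965 and 988 CPM at E12.5, 1046 and 1058 at E13.5, 798 and 656 in E16.5 cells, and 3.84 and 8.91 in P6w cells. Mest, which encodes a membrane hydrolase-like protein of mesodermal tissue, was at 744 and 715 CPM at E12.5, 586 and 604 at E13.5, 488 and 399 in E16.5 cells, and 6.94 and 10.9 in P6w cells. Every adult library of both genes was below every fetal library. Peg3, which encodes a large zinc finger protein, was at 1148 and 1124 CPM at E12.5, 445 and 431 at E13.5, 575 and 387 in E16.5 cells, and 8.99 and 16.1 in P6w cells. Dlk1, a transmembrane protein related to Notch ligands, was at 120 and 117 CPM at E12.5, 170 and 156 at E13.5, 281 and 241 in E16.5 cells, and 1.72 and 5.49 in P6w cells. Dlk1 was therefore highest at E16.5, whereas Peg3 and Mest were highest at E12.5. Plagl1, a zinc finger transcription factor, was at 61.9 and 70.9 CPM at E12.5, 20.1 and 15.6 at E13.5, 81.6 and 55.6 in E16.5 cells, and 53.4 and 71.1 in P6w cells, so its adult libraries lay within the fetal range, the lower of them below those of E12.5 and E16.5 and above those of E13.5. Ndn, which encodes necdin, a growth-restraining protein of the MAGE family, was at 430 and 434 CPM at E12.5, 603 and 641 at E13.5, 357 and 478 in E16.5 cells, and 110 and 120 in P6w cells.

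Among the maternally expressed genes, H19, a non-coding RNA transcribed from the Igf2 domain, was at 2076 and 2105 CPM at E12.5, 2727 and 2690 at E13.5, 1910 and 1947 in E16.5 cells, and 18.95 and 30.6 in P6w cells. Cdkn1c, the cyclin-dependent kinase inhibitor p57, was at 538 and 467 CPM at E12.5, 565 and 537 at E13.5, 301 and 233 in E16.5 cells, and 2.04 and 3.33 in P6w cells. Both were far lower in the adult than in any fetal library. Grb10, an adaptor that dampens insulin and IGF receptor signalling, was at 198 and 192 CPM at E12.5, 57.4 and 65.5 at E13.5, 136 and 110 in E16.5 cells, and 10.5 and 12.2 in P6w cells. Meg3, the non-coding RNA of the Dlk1 domain, was at 593 and 643 CPM at E12.5, 191 and 182 at E13.5, 950 and 865 in E16.5 cells, and 459 and 356 in P6w cells. Meg3 was thus lowest at E13.5 and, unlike its neighbour Dlk1, still abundant at P6w.

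Between E12.5 and E13.5, Peg3, Meg3, Grb10 and Plagl1 fell and Ndn rose (edgeR quasi-likelihood test, adjusted p under 0.05), and the other 5 did not pass the test. These 5 calls among 10 genes stood beside 45.9% of all 16398 genes tested that were called. Peg3 fell by 1.38 ± 0.19 on the log2 scale (SE, n = 2 per stage, adjusted p = 5.85e-05) and Grb10 fell by 1.66 ± 0.14 (adjusted p = 1.26e-06). The log2 change was −1.73 ± 0.13 for Meg3 (adjusted p = 8.58e-07), −1.89 ± 0.20 for Plagl1 (adjusted p = 8.1e-06) and 0.53 ± 0.13 for Ndn (adjusted p = 0.00483). Over all genes this comparison moved with transcript length (Spearman correlation −0.49 across 16141 genes, which are not independent replicates). With an offset for gene length the log2 change shrank to −0.79 for Meg3, −0.62 for Peg3 and −1.13 for Grb10, all still called, and Dlk1 was called higher at 0.69 (adjusted p = 0.0159). The E13.5 libraries also held more RNA of liver markers (10 of 10 called higher, 241 to 249.9 CPM against at most 26.5 CPM at E12.5) and of erythroid markers (30740 to 33570 CPM against 13910 to 15390 CPM), and their part in these values was not tested. In bulk samples, fewer cells of a type and less RNA per cell cannot be told apart.

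Between E12.5 and E16.5, 6 of the 10 genes were called, against 37.6% of all genes. Peg3 (log2 change −1.24 ± 0.19), Cdkn1c (−0.91 ± 0.15), Mest (−0.72 ± 0.15) and Grb10 (−0.66 ± 0.13) fell, with adjusted p from 0.000152 for Peg3 to 0.00141 for Mest. Dlk1 rose by 1.14 ± 0.20 (adjusted p = 0.000433) and Meg3 by 0.55 ± 0.13 (adjusted p = 0.00371), so both genes of the chromosome 12 domain rose. The Meg3 call was lost without E12.5 replicate 1 (adjusted p = 0.0577) and that of Dlk1 under the DESeq2 Wald test (adjusted p = 0.0861). H19, Igf2, Ndn and Plagl1 did not pass the test, at log2 changes of −0.12, −0.43, −0.05 and 0.05. On lane 5 alone, the single E16.5 library differed from the mean of the E12.5 libraries by −0.98 for Peg3, −0.74 for Cdkn1c, −0.58 for Mest and 1.25 for Dlk1 on the log2 scale. Fibroblast and mesenchyme markers (9 genes) summed to 2353 to 2590 CPM at E16.5 against 705 to 763 CPM at E12.5. Germ cell markers (8 genes) summed to 112 to 148 CPM at E16.5 against 19.8 to 21.6 CPM at E12.5. The part of these cells in the values above was not tested.

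From E13.5 to E16.5, 9 of the 10 genes were called, against 54.1% of all genes, and this comparison shares the E16.5 libraries with the preceding one. Meg3 rose by 2.28 ± 0.14, Plagl1 by 1.94 ± 0.20, Grb10 by 1.00 ± 0.13 and Dlk1 by 0.68 ± 0.20 on the log2 scale. Cdkn1c fell by 1.05 ± 0.15, Ndn by 0.58 ± 0.13, Igf2 by 0.53 ± 0.19, H19 by 0.49 ± 0.16 and Mest by 0.42 ± 0.15. Over all genes this comparison also moved with transcript length (Spearman correlation 0.34 across 16141 genes). Over the alternatives the log2 change ranged from 1.44 to 2.35 for Meg3, 1.53 to 2.20 for Plagl1 and 0.51 to 1.15 for Grb10. It ranged from 0.49 to 0.88 for Dlk1 and from −1.24 to −0.64 for Cdkn1c. Peg3, at 0.13 ± 0.19, did not pass the test, and with an offset for gene length its change was −0.57 (adjusted p = 0.0106). Without E13.5 replicate 2 only 5 of these calls were made, and the calls of Mest, H19, Igf2 and Dlk1 were lost under at least 1 alternative each.

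From E12.5 to P6w, 9 of the 10 genes fell and none rose, against 27.5% of all genes that were called lower and 52.9% called in either direction. Cdkn1c fell by 7.54 ± 0.22 on the log2 scale (adjusted p = 9.42e-13), which was 187-fold. Igf2 fell by 7.26 ± 0.26 (153-fold), Peg3 by 6.50 ± 0.25 (90.8-fold), H19 by 6.40 ± 0.20 (84.3-fold) and Mest by 6.35 ± 0.20 (81.8-fold), all with adjusted p of at most 1.7e-11. Dlk1 fell by 5.04 ± 0.27 (32.8-fold) and Grb10 by 4.10 ± 0.16 (17.2-fold). Ndn fell by 1.91 ± 0.14 (3.75-fold) and Meg3 by 0.60 ± 0.13 (1.52-fold, adjusted p = 0.00125). The fall of Meg3 was lost with an offset for gene length (log2 change −0.25, adjusted p = 0.127). Plagl1 did not pass the test, at −0.09 ± 0.19 (adjusted p = 0.705). The Igf2 libraries at P6w rested on 47 and 107 counts, those of Cdkn1c on 25 and 40 and those of Dlk1 on 21 and 66, so the folds of these genes carry the counting error of the adult libraries. The log2 change of Dlk1 was −6.10 without P6w replicate 2 and −4.43 without P6w replicate 1, and that of Igf2 was −7.99 and −6.79, all still called.

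All E12.5 libraries were on lane 5 and all P6w libraries on lane 1, and the E16.5 stage, with a library on each, is the link between them. With lane as a term, 9 of the 10 genes passed the test and Plagl1 did not, with log2 changes of −7.18 for Cdkn1c, −6.98 for Igf2, −6.07 for Mest and −5.93 for Peg3. Within lane 1, the E16.5 library was above the mean of the P6w libraries by 103-fold for Igf2, 86.8-fold for Cdkn1c, 78.5-fold for H19, 66.9-fold for Dlk1, 44.8-fold for Mest and 30.9-fold for Peg3, whereas Plagl1 was at 55.6 and 62.2 CPM. Against both E16.5 libraries, 9 of the 10 genes fell at P6w, beside 29.8% of all genes called lower and 56.1% called in either direction. In that comparison, which shares the P6w libraries, Dlk1 fell by 6.18 ± 0.28 and Meg3 by 1.16 ± 0.13 on the log2 scale, while Plagl1 was at −0.14 ± 0.19 (adjusted p = 0.542). Adult granulosa markers rose in 7 of 7 and erythroid markers fell in 8 of 8 between E12.5 and P6w, and the part of cell composition in the falls was not tested.

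Most other imprinted genes did not share a fall of this size. Of 59 further imprinted genes listed, 53 were tested at the stages. At P6w 24 were lower than at E12.5, 10 higher and 19 not called, beside 27.5% of all genes called lower and 52.9% called in either direction. Their median log2 change was −0.58, against −5.70 for the 10 genes and −0.04 for all genes tested. With genes at 0 counts set to a floor of 3 counts, these medians were −0.48 for the 53 and −5.83 for the 10. Both lists were drawn up with results of these data known, and the difference between them was not tested. Zim1, the neighbour of Peg3, was at 0.249 ± 0.237 CPM (SD, n = 2) at P6w and 37.9 ± 4.595 CPM at E12.5 (log2 change −7.22 ± 0.34), and Magel2, the neighbour of Ndn, had no count in either P6w library and up to 61 at E12.5. Nap1l5, a retrogene inside an intron of Herc3, rose by 9.08 ± 0.21 on the log2 scale, from 0.625 to 341 CPM, and Pon3, a paraoxonase, rose by 2.18 ± 0.18.

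**Figure D2:**
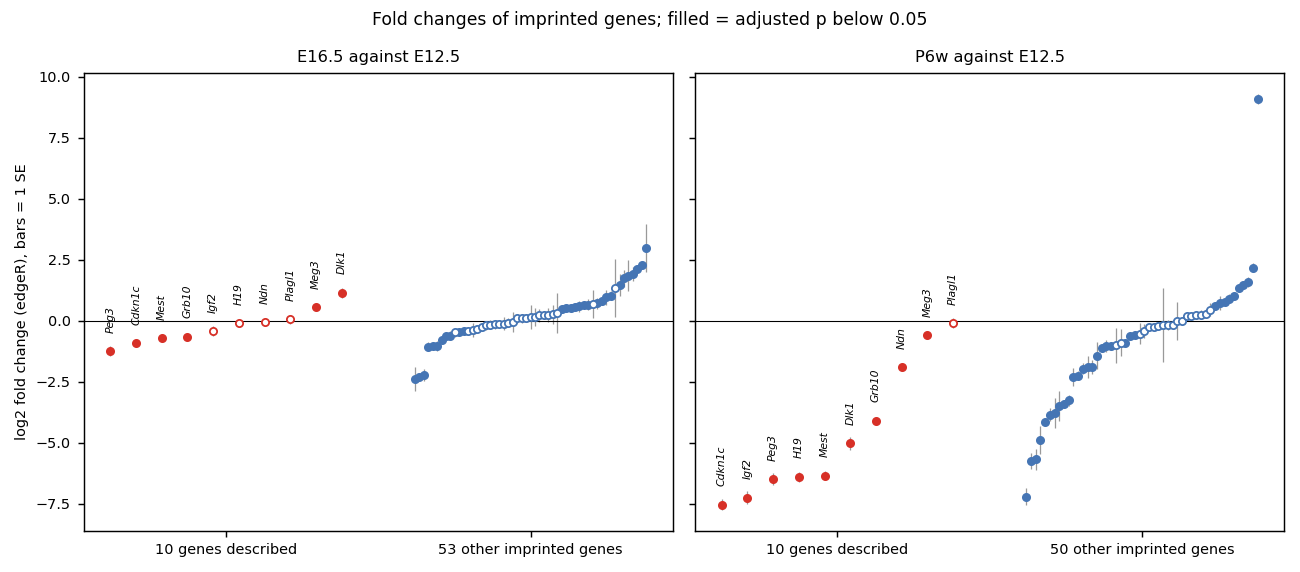
Log2 fold changes of the 10 genes (red) and of other imprinted genes (blue) at E16.5 and at P6w against E12.5, with 1 SE; filled points passed the test, and the 3 genes with no count in either P6w library are not drawn. At P6w the 10 genes ran from −7.54 (Cdkn1c) to −0.09 (Plagl1), and the others drawn from −7.22 (Zim1) to 9.08 (Nap1l5).

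At E13.5 the other imprinted genes split into 15 higher and 17 lower than at E12.5, beside 45.9% of all genes called, with Slc22a18 (log2 change 2.61 ± 0.63) and Phlda2 (2.22 ± 0.35), maternally expressed neighbours of Cdkn1c, rising. The long transcripts Zdbf2 (−2.65 ± 0.27) and Kcnq1ot1 (−2.65 ± 0.25), the latter the antisense RNA of the Cdkn1c domain, fell. The E13.5 comparison moved with transcript length (Spearman correlation −0.49), and these values are given without an offset for gene length. At E16.5, 18 were higher and 11 lower than at E12.5, beside 37.6% of all genes called. Dcn, which encodes decorin of the extracellular matrix, rose from 57.9 to 285 CPM and Ins2 from at most 4 to at most 22 counts per library, while Th, tyrosine hydroxylase, and Asb4 fell by 2.38 ± 0.50 and 2.32 ± 0.17.

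Of 14 genes whose proteins set, keep or erase imprints, 13 were tested at the stages, and 11 of them were lower at P6w than at E12.5 and none higher, against 27.5% of all genes called lower. Zfp57, the factor that recognises TGCCGC, fell from 47.7 ± 1.34 to 7.66 ± 1.53 CPM (SD, n = 2), a log2 change of −2.64 ± 0.19 (adjusted p = 1.47e-08). Ctcfl, a testis paralog of Ctcf, had no count in either P6w library and at most 6 at E12.5. At E16.5, where 37.6% of all genes were called, 6 were lower, among them the maintenance methyltransferase Dnmt1 (−0.84 ± 0.13) and the corepressor Trim28 (−0.83 ± 0.11), and Ctcfl rose from at most 6 to at most 50 counts. At E13.5, where 45.9% of all genes were called, 8 were lower, led by the demethylases Tet3 (−1.62 ± 0.20) and Tet2 (−1.49 ± 0.20), and Dppa3, which protects imprints in the zygote and is also a germ cell gene, rose by 3.12 ± 0.55. The E13.5 comparison moved with transcript length, and these sizes and their order are given without an offset for gene length. Of 8 germ cell markers, 7 were tested and 5 rose between E12.5 and E13.5, and their part in the Dppa3 value was not tested. The sum of these markers was also higher at E16.5 than at E12.5, and their part in the Ctcfl value was not tested.

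In the IGF pathway, 18 of 19 genes were tested, and at P6w 10 were lower and 7 higher than at E12.5, beside 52.9% of all genes called in either direction. Among genes of RNA-binding proteins that bind Igf2 mRNA, Igf2bp1 fell from 286 ± 22.8 to 4.28 ± 4.43 CPM and Igf2bp3 from 151 ± 1.02 to 2.48 ± 0.38 CPM, log2 changes of −6.07 ± 0.38 and −5.93 ± 0.18. The binding proteins Igfbp7 and Igfbp1 rose by 2.60 ± 0.22 and 1.95 ± 0.72. Igf2bp1 was already lower at E13.5 (−1.80 ± 0.28) and E16.5 (−2.29 ± 0.29), as was Igf2bp3 at E16.5 (−1.21 ± 0.13). Over the same fetal stages Igfbp6 rose by 1.26 ± 0.20 at E13.5 and, against the same E12.5 libraries, by 1.78 ± 0.20 at E16.5. Igfbp2 rose by 0.60 ± 0.13 at E13.5 and Igfbp7 rose by 1.34 ± 0.22 at E16.5, while Irs2, an adaptor below the receptor, fell by 2.49 ± 0.20 at E13.5. The E13.5 comparison moved with transcript length, and its values for this list are given without an offset for gene length. Counts over the list were 2 higher and 11 lower at E13.5, beside 45.9% of all genes called, and 6 higher and 4 lower at E16.5, beside 37.6%.

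In cells induced with V580, the 8 genes of the FPKM table were all detected from D4 to D10. The 3 E12.5_GC libraries differed from each other far more than libraries of an induced day, with a chi-square of 55.5 to 110 per degree of freedom against at most 11. Induced cells and gonadal cells also differed widely in cell markers: 11 gonadal somatic markers summed to 60.5 to 63.4 FPKM at D4, 174 to 186 at D6, 238 to 247 at D8 and 227 to 242 at D10, against 698 to 831 in E12.5_GC. The 9 fibroblast and mesenchyme markers went from 84.3 to 96.8 FPKM at D4 to 1343 to 1655 at D10, against 229 to 259 in E12.5_GC, and 4 trophoblast and placenta markers were at 105 to 136 FPKM on all days against 12.53 to 15.7. The part of these cells in the values below was not tested. Calls in this table needed an adjusted p under 0.05 (limma) and a change of at least 2-fold on the scale of log2(FPKM + 1).

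Cdkn1c was the gene in which the induced cells differed most from E12.5_GC. It was at 514, 662 and 413 FPKM in E12.5_GC, 27.8, 25.9 and 24.4 at D4, 47.3, 46.1 and 49.5 at D6, 65.5, 57.0 and 55.2 at D8, and 60.1, 54.0 and 60.6 at D10. Every induced library was below every E12.5_GC library, by 4.27 ± 0.13 on the log2 scale at D4 (adjusted p = 4.63e-13), 3.42 ± 0.13 at D6, 3.12 ± 0.13 at D8 and 3.14 ± 0.13 at D10. Ndn was at 54.8, 68.4 and 43.7 FPKM in E12.5_GC, 11.7, 11.1 and 10.7 at D4, 17.3, 18.8 and 17.0 at D6, 33.2, 26.2 and 26.8 at D8, and 23.4, 22.8 and 24.2 at D10. It was lower by 2.20 ± 0.12 at D4, 1.58 ± 0.12 at D6 and 1.19 ± 0.12 at D10, and at D8, at −0.92 ± 0.12, it was under the 2-fold limit. All 4 comparisons with E12.5_GC share its 3 libraries.

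Plagl1 was called higher in the induced cells from D6 on, and Dlk1 at D8 and D10. Plagl1 was at 15.1, 4.63 and 14.3 FPKM in E12.5_GC, 20.4, 21.0 and 22.4 at D4, 34.3, 33.8 and 35.4 at D6, 33.1, 33.3 and 35.5 at D8, and 29.6, 31 and 29.2 at D10. All induced libraries lay above the E12.5_GC libraries, of which replicate 2 stood apart at the lower end. The log2 difference was 1.00 ± 0.27 at D4, under the 2-fold limit, 1.67 ± 0.27 at D6 (adjusted p = 6.6e-05), 1.65 ± 0.27 at D8 and 1.47 ± 0.27 at D10, and without E12.5_GC replicate 2 it was 0.98 at D10, under the 2-fold limit. Dlk1 was at 67.5, 81.4 and 46.6 FPKM in E12.5_GC, 46.5, 46.6 and 40.03 at D4, 97.5, 104 and 100.2 at D6, 192, 166 and 165 at D8, and 218, 181 and 217 at D10. It rose between D4 and D6 by 1.17 ± 0.15 (adjusted p = 2.04e-05), and its log2 difference from E12.5_GC was −0.51 ± 0.15 at D4 and 0.65 ± 0.15 at D6, under the 2-fold limit. It was above E12.5_GC by 1.44 ± 0.15 at D8 and 1.67 ± 0.15 at D10 (adjusted p = 1.54e-07). The summed fibroblast and mesenchyme markers given above were higher on each later day.

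Mest was high until D8 and low at D10. It was at 219, 177 and 223 FPKM in E12.5_GC, 226, 237 and 228 at D4, 273, 282 and 276 at D6, 206, 204 and 204 at D8, and 60.5, 67.4 and 63.4 at D10. The D10 libraries lay below all others, and Mest fell between D8 and D10 by 1.67 ± 0.08 on the log2 scale (3.17-fold, adjusted p = 8.54e-09), the only call among the 8 genes in that comparison, beside 1.29% of all genes. Against E12.5_GC it fell by 1.67 ± 0.08 at D10 (adjusted p = 1.69e-10), and its log2 differences at D4, D6 and D8 were 0.17, 0.43 and −0.01. Igf2 was at 49.3, 26.0 and 56.2 FPKM in E12.5_GC, 14.7, 13.3 and 10.9 at D4, 29.8, 29.9 and 30.0 at D6, 34.6, 28.4 and 29.9 at D8, and 26.8, 23.2 and 26.0 at D10. At D4 it was lower than in E12.5_GC by 1.62 ± 0.20 (adjusted p = 3.93e-06), and it rose from D4 to D6 by 1.16 ± 0.20 (adjusted p = 0.000298). At D10 the log2 difference of Igf2 from E12.5_GC was −0.70, under the 2-fold limit. Without E12.5_GC replicate 2 it was −1.03 and called.

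Peg3 ranged from 151.9 to 219 FPKM over the 12 V580 libraries and was at 128, 69.3 and 154 FPKM in E12.5_GC, and Grb10 ranged from 36.2 to 42.5 FPKM and was at 71.2, 53.8 and 65.9 FPKM. Neither gene passed the 2-fold limit against E12.5_GC on any day, Peg3 with log2 differences between 0.49 and 0.95 and Grb10 between −0.73 and −0.58. In E12.5_GC replicate 2, Igf2, Peg3, Plagl1, Mest and Grb10 were the lowest and Cdkn1c, Dlk1 and Ndn the highest of the 3 libraries. This library was thus at an end of the range for all 8 genes. Its erythroid markers (3 of 8 listed) summed to 1693 FPKM against 4435 and 1038 FPKM in the other two.

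Against E12.5_GC, 3 of the 8 genes were called at D4, 3 at D6, 3 at D8 and 5 at D10, beside 20.4%, 15.2%, 13% and 16.4% of all 11512 genes tested. Between days, 2 of 8 were called from D4 to D6, beside 5.08% of all genes. From D6 to D8 limma called none, beside 2.55% of all genes, while 4 of the 8 had an unadjusted p under 0.05, and edgeR on the recovered fragments also called none at 2-fold. Of 36 other imprinted genes tested at D6, 5 were higher and 4 lower than in E12.5_GC, with a median log2 difference of 0.14 against 0.03 over all genes. Slc38a4, a placental amino acid transporter gene, was at 164 ± 2.93 FPKM at D6 and 35.4 ± 4.05 in E12.5_GC (SD, n = 3), and Sfmbt2, a Polycomb gene needed in trophoblast, at 5.96 ± 0.43 and 0.326 ± 0.103. Asb4 (0.350 ± 0.032 against 16.6 ± 1.98 FPKM) and Peg12 (2.91 ± 0.29 against 11.8 ± 1.03 FPKM) were lower. None of 12 imprint regulators tested was called by limma at D6, and in the IGF pathway 3 of 16 were higher and none lower, including Igfbp3 (161 ± 3.54 against 31.8 ± 6.24 FPKM) and Igf2bp1 (32.1 ± 0.85 against 9.36 ± 1.95 FPKM).

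**Figure D3:**
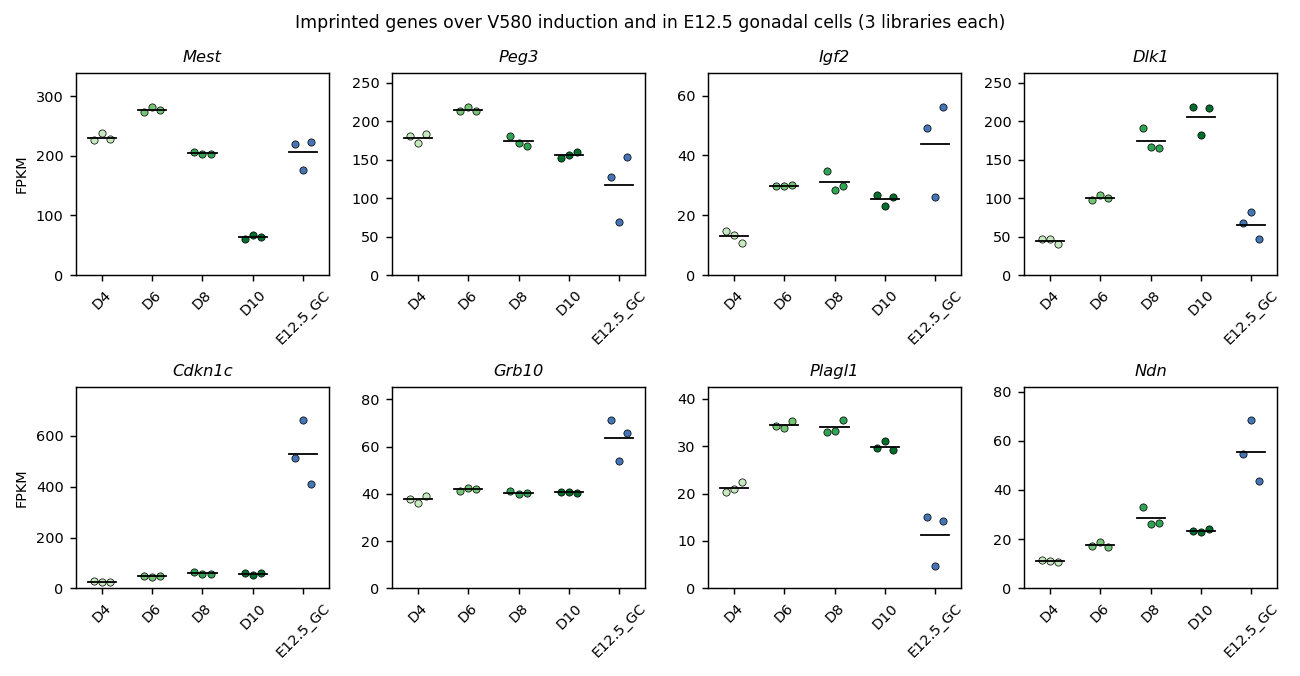
FPKM of the 8 genes in the 3 libraries of each V580 day and of E12.5_GC; points are libraries and lines are means, and each panel has its own axis from 0. Mest drops to between 60.5 and 67.4 at D10, and every V580 library of Cdkn1c is at or below 65.5 while E12.5_GC starts at 413.

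In the early induction, Mest had the largest change of the 8 genes. At 24 h it was at 58.6 and 57.3 FPKM in Con, 60.8 and 65.8 with Vc, 59.3 and 58.0 with AM580, and 60.7 and 59.3 with V580. At 48 h it was at 60.2 and 64.1 FPKM in Con, 74.7 and 74.8 with Vc, 316 and 298 with AM580, and 289 and 292 with V580. The libraries with AM580 or V580 at 48 h lay above all the others and the rest lay close together. Mest rose by 2.29 ± 0.04 on the log2 scale with AM580 at 48 h (n = 2 per group, adjusted p = 1.36e-14) and by 2.21 ± 0.04 with V580 (adjusted p = 1.89e-14), or 4.88-fold and 4.62-fold in FPKM + 1, and V580 and AM580 differed by −0.08 ± 0.04 (adjusted p = 0.248). The V580 effect was larger at 48 h than at 24 h by 2.16 ± 0.06 (adjusted p = 9.22e-12). The AM580 and V580 comparisons share their Con libraries.

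Grb10 followed the same groups, on top of a rise in the untreated cells. It was at 8.23 and 7.41 FPKM in Con, 7.74 and 8.46 with Vc, 8.20 and 7.61 with AM580 and 7.62 and 7.16 with V580 at 24 h. At 48 h it was at 18.4 and 18.2 FPKM in Con, 20.6 and 19.9 with Vc, 41.4 and 40.4 with AM580, and 39.9 and 40.9 with V580. Thus all 48 h libraries were above all 24 h libraries, and those with AM580 or V580 were above the rest. Grb10 rose from 24 h to 48 h without molecules by 1.13 ± 0.06 (adjusted p = 1.83e-10), with AM580 against Con at 48 h by 1.12 ± 0.06 (adjusted p = 4.78e-10) and with V580 by 1.10 ± 0.06 (adjusted p = 5.7e-10), and the V580 effect was larger at 48 h by 1.17 ± 0.08.

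Plagl1 and Igf2 were low in these cells and rose with AM580. At 48 h Plagl1 was at 1.04 and 0.844 FPKM in Con, 0.611 and 0.581 with Vc, 3.89 and 3.51 with AM580, and 1.94 and 2.56 with V580, and at 24 h all 8 libraries were between 0.728 and 1.17. Igf2 was at 0.756 and 0.764 FPKM in Con, 0.413 and 0.292 with Vc, 3.76 and 3.09 with AM580, and 1.14 and 1.01 with V580 at 48 h, and between 0.145 and 0.763 at 24 h. The AM580 libraries were the highest for both genes at 48 h. Plagl1 rose with AM580 by 1.28 ± 0.09 (adjusted p = 2.6e-08) and Igf2 by 1.33 ± 0.09 (adjusted p = 1.97e-08) in log2(FPKM + 1), a scale that understates changes at such levels; on recovered fragments the log2 changes were 2.00 and 2.20. With V580 at 48 h the differences from Con were 0.74 ± 0.09 for Plagl1 and 0.24 ± 0.09 for Igf2, under the 2-fold limit, and the Plagl1 value was 1.28 and called on recovered fragments. Igf2 was lower with V580 than with AM580 at 48 h by 1.09 ± 0.09 (adjusted p = 1.58e-06), a call that was lost without AM580_48h replicate 1.

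Cdkn1c was called lower with V580 than with AM580 at both times, and Peg3 was called lower with V580 than in Con at 24 h. Cdkn1c was at 8.78 and 10.9 FPKM in Con, 6.99 and 5.37 with Vc, 13.3 and 12.9 with AM580, and 6.37 and 4.43 with V580 at 24 h. At 48 h Cdkn1c was at 14.1 and 15.6 FPKM in Con, 8.86 and 8.27 with Vc, 28.2 and 26.6 with AM580, and 11.5 and 11.9 with V580. At both times the AM580 libraries were the highest and did not overlap with the others. V580 was lower than AM580 by 1.16 ± 0.13 at 24 h (adjusted p = 3.81e-05) and by 1.16 ± 0.13 at 48 h (adjusted p = 1.8e-05), though the 24 h call was lost without V580_24h replicate 2. With Vc alone the Cdkn1c libraries overlapped those with V580 at 24 h and were below them at 48 h, where the log2 difference of Vc from Con was −0.73 ± 0.13 (adjusted p = 0.00168), under the 2-fold limit. Peg3 was at 74.3 and 64.4 FPKM in Con, 47.7 and 58.7 with Vc, 48.3 and 46.7 with AM580, and 31 and 28.4 with V580 at 24 h. At 48 h Peg3 was at 50.6 and 51.1 FPKM in Con, 48.6 and 45.8 with Vc, 52.1 and 46.8 with AM580, and 27.2 and 27.9 with V580. The V580 libraries were the lowest at both times. Peg3 fell with V580 at 24 h by 1.19 ± 0.08 (adjusted p = 8.54e-08), and at 48 h, where Con itself was lower, the difference was −0.86 ± 0.08, under the 2-fold limit.

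Dlk1 was between 1.59 and 6.91 FPKM and Ndn between 5.18 and 8.92 FPKM over the 16 libraries, and neither was called in any comparison. Dlk1 was highest with AM580, at 5.31 and 5.24 FPKM at 24 h and 6.91 and 6.82 at 48 h, against 2.57 and 2.57 and then 3.68 and 3.69 in Con, a log2 difference of 0.81 ± 0.07 and 0.75 ± 0.07. On recovered fragments the Dlk1 difference at 24 h was 1.04 and passed the 2-fold limit. Ndn libraries with Vc or V580 were below those of Con at both times, with log2 differences between −0.28 and −0.47.

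**Figure D4:**
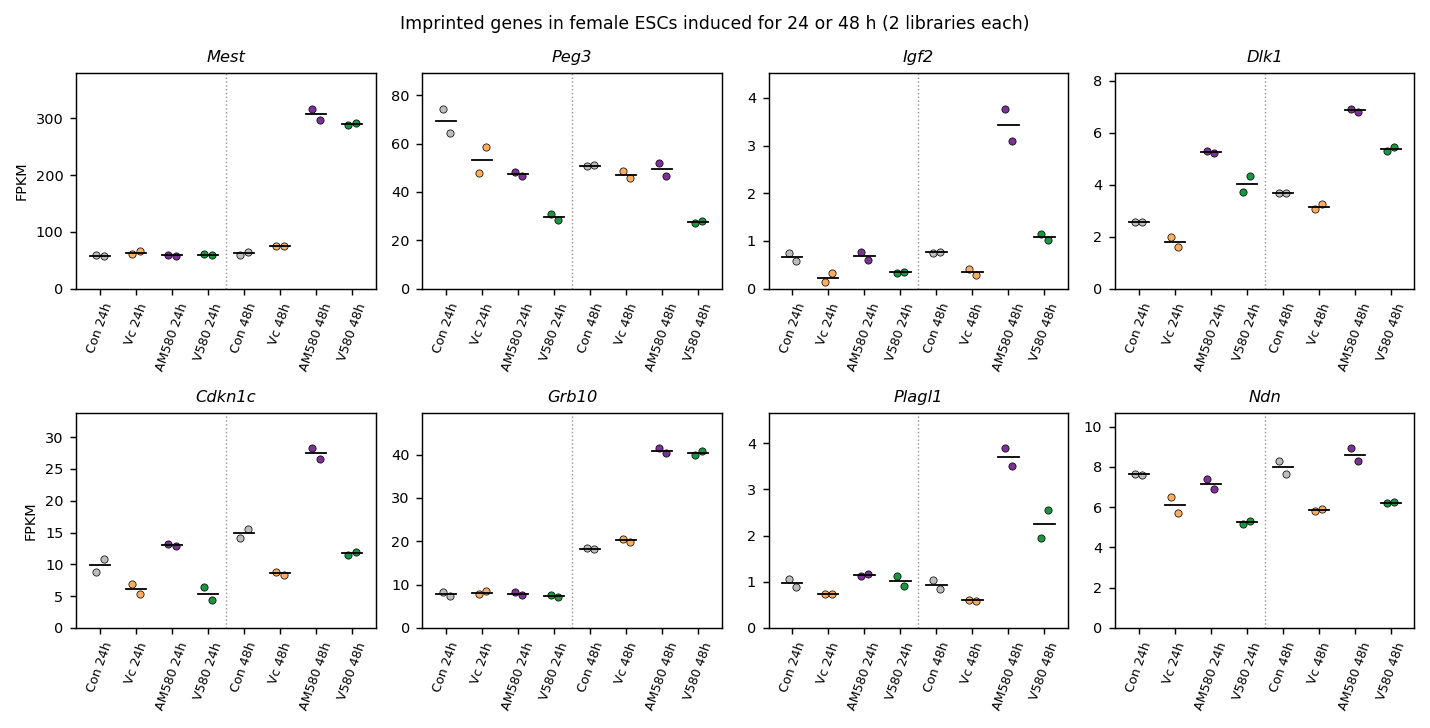
FPKM of the 8 genes in the 2 libraries of each treatment; points are libraries, lines are means, the dotted line parts 24 h from 48 h, and each panel has its own axis from 0. Mest and Grb10 are high with AM580 and V580 at 48 h, and Cdkn1c, Igf2 and Plagl1 are highest with AM580 at 48 h.

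With AM580 at 48 h, 4 of the 8 genes rose and none fell, beside 2.33% of all 10644 genes called higher and 3.23% called in either direction, and with V580 2 of the 8 were called, beside 3.18%. At 24 h, 1 of the 8 was called with V580, beside 0.695%, and in the comparison of V580 with AM580 1 at 24 h, beside 0.0658%, and 2 at 48 h, beside 0.263%. Without molecules 1 was called between the times, beside 7.72%, and for the difference of the V580 effect between times 2, beside 1.83%. limma called none of the 8 for Vc at 24 h (0.0846% of all genes), AM580 at 24 h (0.404%), Vc at 48 h (0.047%) or the interaction of Vc with AM580 at 48 h (0.122%), while 6, 3, 7 and 4 had an unadjusted p under 0.05, and edgeR on recovered fragments called 1, 1, 1 and 0. The genes so called were Igf2, lower with Vc at both times, and Dlk1, higher with AM580 at 24 h. Over the alternatives the log2 change of Igf2 with Vc reached −1.56 at 24 h and −1.08 at 48 h. In Con at 24 h and 48 h, Igf2 averaged 0.671 and 0.760 FPKM and Plagl1 0.967 and 0.940. A fall of either gene from these levels could not reach 2-fold in log2(FPKM + 1), so limma could not call it. The median log2 change with AM580 at 48 h was 0.98 over the 8 genes and −0.03 over all genes.

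Summed markers of other cell types differed between these treatments. The 4 trophoblast and placenta markers summed to 58.6 to 59.0 FPKM in Con at 48 h, 113 to 114 with AM580 and 105 to 109 with V580, and the 7 extraembryonic endoderm markers listed to 5.39 to 6.02, 21.9 to 22.6 and 11.3 to 13.2. The 4 Sertoli cell markers listed summed to 6.92 to 6.98 FPKM in Con, 56.3 to 61.9 with AM580 and 40.5 to 44.97 with V580, and the 6 mesonephros markers listed to 0.858 to 1.16, 4.34 to 4.69 and 2.76 to 2.79. The 8 pluripotency markers summed to 2248 to 2302 FPKM in Con, 2811 to 2983 with AM580 and 2282 to 2381 with V580. Markers also differed between the times. The 9 fibroblast and mesenchyme markers summed to 122 to 131 FPKM in Con at 24 h and 37.7 to 38.4 at 48 h. With V580 they summed to 106 to 113 and 42.8 to 43.8 FPKM. Per the paper, the ESCs were kept on fibroblast feeders, which were removed by adherence before induction. The part of all these cells in the values of the imprinted genes, and in their differences between the times, was not tested. Of 32 other imprinted genes tested with V580 at 48 h, 3 were higher and 2 lower, beside 3.18% of all genes called. Their median log2 change was 0.01. Peg10, a placental retrogene, rose from 123 ± 3.04 to 451 ± 0.37 FPKM (SD, n = 2), or by 1.86 ± 0.08 on the log2 scale, and Sfmbt2 rose by 1.51 ± 0.11. Snrpn fell from 101 ± 1.05 to 25.6 ± 0.42 FPKM and Dcn by 1.09 ± 0.06. Among 13 imprint regulators tested, the de novo methyltransferases Dnmt3b, from 413 ± 14.3 to 68.5 ± 0.70 FPKM, and Dnmt3a, from 82.7 ± 1.74 to 34.9 ± 2.37 FPKM, fell and no other was called, beside the same 3.18% of all genes. In the IGF pathway Igfbp3 rose by 1.05 ± 0.04 and Igfbp5 fell by 1.27 ± 0.12, and the other 11 tested were not called, again beside 3.18% of all genes.

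Over all 31 libraries of the FPKM table, among 11819 genes, the genes whose log2(FPKM + 1) was most like that of Mest were Mcm9 (Pearson r = 0.90), Npr1 (0.89) and Fbxl16 (0.88). For Peg3 they were Usp29 (0.96), its neighbour in the same imprinted domain, Sema3c (0.96) and Igf1r (0.95), which encodes the receptor of IGF2. For Igf2 they were Tcaf1, Ccng2 and Sema3f, each at 0.99. These are descriptions over libraries that fall into separate groups of cells and share those groups.

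The droplet library of V580 cells at day 6 held 15412 barcodes, none of them repeated, of which 15315 were kept, with a median of 9281 unique molecular identifiers (UMIs) per cell. It is 1 sample, so levels are given without a test, and the intervals cover counting error only (95% exact Poisson for levels, exact binomial for shares). Of all UMIs in 10000, Peg3 took 22.6 (22.5 to 22.7), Meg3 19.5, H19 10.2, Dlk1 2.99, Mest 2.88, Igf2 2.83, Plagl1 1.74, Cdkn1c 1.63, Grb10 1.04 and Ndn 0.178. H19 and Meg3, for which no bulk value of induced cells is given here, were thus abundant in these cells. Clustering without the 10 genes gave 11 clusters. Cluster 3 (1524 cells) was interstitial-like, with 5 of 6 markers at least 2-fold above the rest, cluster 5 (1291 cells) was extraembryonic endoderm-like, with 7 of 10, and cluster 9 (77 cells) was neuron-like, with 7 of 7. The other clusters were left unnamed, and a cluster of 26 cells led by Zscan4 genes was not described further.

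Mest was highest in the cells of clusters 1, 2 and 3, at 3.79, 4.14 and 4.07 UMIs in 10000, and was scarce in clusters 5, 7 and 8, at 0.514, 0.510 and 0.537. It was at 2.96 in cluster 4 and 2.38 in cluster 0. Cluster 1 (3082 cells) held 2 of 6 mesothelial markers at 2-fold, Upk3b and Lrrn4. Both were among its top 10 genes, as was Wnt4, the 1 of 6 granulosa markers at 2-fold there. Cluster 2 (1968 cells) was led by cell cycle genes such as Mki67, Aspm and Cenpf. Thinned to 2000 UMIs per cell, which 11515 cells reached, a Mest UMI was found in 50.2% of cluster 3 cells (47.6 to 52.8%) and 8.73% of cluster 5 cells (7.15 to 10.5%), and unthinned in 89.3% and 35.0%, at median depths of 14061 and 18228 UMIs. Igf2 was highest in cluster 3, at 4.20 UMIs in 10000, and lowest in cluster 5, at 0.812. Plagl1 was also highest in cluster 3, at 2.92, and was low in cluster 5, at 0.599, and lowest in cluster 7, at 0.291. The 2 genes came apart in cluster 8, with 3.24 for Igf2 and 0.443 for Plagl1. The interstitial-like cells were therefore at or near the top for Mest, Igf2 and Plagl1, and the extraembryonic endoderm-like cells at or near the bottom. Neither trait was particular to these cells. Mest was higher in cluster 2 than in cluster 3, and cluster 4 had 3.51 for Igf2 and 2.77 for Plagl1. Clusters 7 and 8 were below cluster 5 for Plagl1.

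Cdkn1c was distributed differently. It was at 9.96 UMIs in 10000 (9.72 to 10.2) in cluster 8 (656 cells), which was led by Rhox9 and Rhox6 and held 6 trophoblast and placenta markers at 2-fold but none among its top 10 genes, and at 5.39 in the neuron-like cluster 9. In the other described clusters it was between 0.381 and 2.25. At 2000 UMIs per cell, 64.9% of cluster 8 cells (60.2 to 69.4%) and 5.26% of cluster 5 cells (4.03 to 6.73%) had a Cdkn1c UMI, against 71.6% and 22.5% unthinned at median depths of 3027 and 18228. H19 was also highest in cluster 8, at 18.1, and lowest in cluster 9, at 4.92. Free RNA was not removed, so the lower shares may be background.

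Peg3 and Meg3 were highest in cluster 4 (1336 cells), at 33.6 and 50.2 UMIs in 10000, and lowest in cluster 7 (766 cells), at 3.84 and 3.11. Cluster 4 had a median of 2021 UMIs and 16.1% mitochondrial UMIs per cell, more than any other cluster, and mitochondrial genes were among its top 10 by fold. Outside cluster 4, Meg3 was at 39.7 in the neuron-like cluster 9 and Peg3 at 30.5 in cluster 1. The place of the highest level depended on the clustering. At resolution 1.0, with 17 clusters of at least 50 cells, Peg3 reached 33.7 in a cluster where 99.9% of cells had its UMI. Meg3 there reached 81.6, in another cluster where 99.3% of cells had its UMI. Meg3 and Dlk1 came apart between clusters: cluster 5 had 22.9 for Meg3 and 1.30 for Dlk1, while clusters 1, 2 and 3 had 18.8 to 20.3 for Meg3 and 3.61 to 3.82 for Dlk1. The Meg3 level of cluster 5 depends on how cells are weighted, at 36.7 as a mean over cells and 30.4 thinned to 2000 UMIs per cell. Ndn was highest in the neuron-like cells, at 0.807 (0.614 to 1.04), and at most 0.368 elsewhere. Grb10 ranged between 0.349 in cluster 8 and 1.35 in cluster 1. Within cells, the highest pairwise correlation of log values among the 10 genes was that of Peg3 with Meg3 (Pearson r = 0.41 over 15315 cells), the points sharing 1 library and differing in depth.

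**Figure D5:**
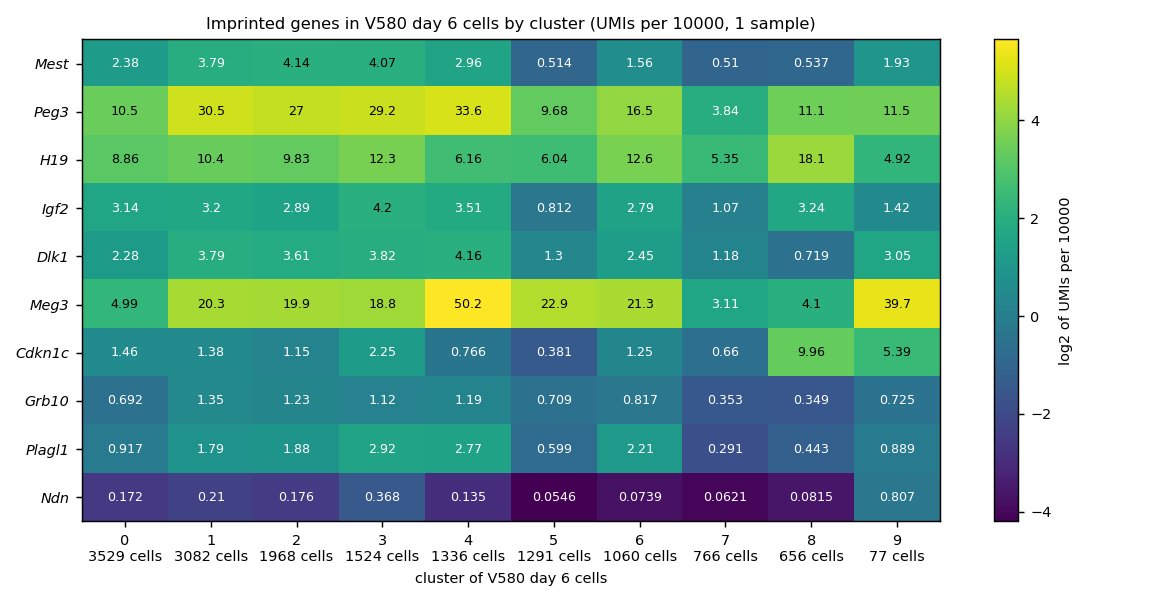
UMIs in 10000 of the 10 genes in the 10 clusters of at least 50 cells from the V580 day 6 library; colour is the log2 of the printed value. Mest is lowest in clusters 5, 7 and 8 (0.510 to 0.537), and Cdkn1c is highest in cluster 8 (9.96).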

How the data were processed

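The deposited table of stage libraries holds gene counts that, per the study's methods, the authors made with HISAT2 on mm10 and featureCounts. The deposited FPKM values of induced and gonadal cells were also made by the authors on mm10, with the tool and gene filter not given in the sources used here, and the single-cell counts were made by the authors with Cell Ranger. The submitters' notes also name FastQC, RSEM, SAMtools and Trim Galore, without versions. Columns of an unmatched table (10) were not used, and neither were libraries of germ cell aggregates.

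Stage counts were tested with edgeR 4.0.16 (quasi-likelihood test, TMM, filterByExpr, 16398 genes, 8 libraries in 1 model, Benjamini-Hochberg adjusted p under 0.05). FPKM values were tested with limma 3.58.1 on log2(FPKM + 1), for 11512 genes at FPKM of at least 1 in 3 of 15 libraries (days) and 10644 genes in 2 of 16 (treatments), and called at an adjusted p under 0.05 and 2-fold. DESeq2 1.42.0 was an alternative for counts. Whole fragments were recovered from FPKM and exon length for 12988 of 13682 genes (95.4 to 95.6% of values whole within 0.02), and edgeR on them was added after the data were seen. R was 4.3.3 and Python 3.11.15. Fits were tested on simulated data. Single cells were kept at 200 genes or more and a mitochondrial share of up to 40%, and clustered with scanpy 1.11.5 and leidenalg 0.10.2 (resolution 0.5), with the 10 genes left out. Scrublet called 1 cell a doublet, which is too few to have worked, so doublets were not removed.

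The members and lists were chosen with earlier results of these data known. Named genes of a list were the 2 largest called rises and 2 largest called falls whose groups did not overlap, and genes like Mest, Peg3 and Igf2 were the 3 with the highest Pearson correlation. Among comparisons with 3 same-numbered pairs, every pair's deviations correlated above 0.1 only for D4 against E12.5_GC (0.115 to 0.344), as found from the data. Alternatives covered normalization, filters, pseudocount, fold limit, length, GC content, lane, replicate block and leaving out each replicate. Depth is given with the results, and intervals cover counting error only.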

Additional observations from a re-analysis of the deposited data

Results flagged for a closer look

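The effect of V580 against Con differed between 48 h and 24 h, by the test of that difference (limma, 2 libraries per group), for 5 of the 8 genes. The log2 difference between the effects was 2.158 for Mest (adjusted p = 9.22e-12), 1.173 for Grb10 (adjusted p = 6.51e-08), 0.7054 for Plagl1 (adjusted p = 0.000775), 0.549 for Igf2 (adjusted p = 0.00484) and 0.3325 for Peg3 (adjusted p = 0.0436). Only those of Mest and Grb10 also passed the 2-fold limit.

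At 48 h the effect of AM580 differed with and without Vc for 3 genes, all under the 2-fold limit. The interaction was −0.3409 for Mest (adjusted p = 0.00654), −0.715 for Peg3 (adjusted p = 0.00288) and −0.7083 for Igf2 (adjusted p = 0.00614) on the log2 scale. With edgeR on recovered fragments the Igf2 interaction was −0.59 (adjusted p = 0.411).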

How the results depend on the processing

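Over 138 results of single members and 1510 alternatives, none reversed, 23 lost a call, 22 gained one and 10 single-cell levels moved. Counts of members called changed as follows. From E12.5 to E13.5, 8 were called in place of 5 with no filter on low counts, with a lane term, or with the pair of stages fitted alone. At a 2-fold limit, 2 were called in place of 6 from E12.5 to E16.5 and 4 in place of 9 from E13.5 to E16.5. Without a fold limit, 7, 7, 6 and 8 were called at D4, D6, D8 and D10 against E12.5_GC, 5 from D4 to D6 and 3 from D6 to D8. In the treatments it gave 5 for Vc, 2 for AM580 and 5 for V580 at 24 h, 4 for Vc and 8 for V580 at 48 h, 5 and 6 for V580 against AM580 at 24 h and 48 h, 4 for Con between times, 3 for the interaction and 5 for the V580 effect between times. A pseudocount of 0.1 gave 1 for Vc and 1 for AM580 at 24 h and 4 for the V580 effect. Recovered fragments gave the same 3 counts and 1 for Vc at 48 h. The summed level of the 10 genes in single cells, 65.6 UMIs in 10000, was 65.37 at a mitochondrial limit of 20% and 65.87 thinned to 2000 UMIs. Leaving out each replicate gave 5 to 10 calls from E13.5 to E16.5 (5 without E13.5 replicate 2), 5 to 7 from E12.5 to E16.5, 9 to 10 from E16.5 to P6w, 3 to 4 each for D4, D6 and D8 against E12.5_GC, and for V580 against AM580 0 to 1 at 24 h and 1 to 2 at 48 h. The calls so gained against E12.5_GC were of Plagl1 at D4, Peg3 at D6, Ndn at D8 and Igf2 at D10. At D10 the count stayed at 5, because without E12.5_GC replicate 2 Igf2 gained a call and Plagl1 lost its call. With a replicate block, 6 members were called from E12.5 to E13.5, and for D4 against E12.5_GC, where the numbers paired, it changed no call and left 3. The cause of these changes was not tested. Over all genes, the 2-fold limit left 2785 of 7530 calls from E12.5 to E13.5, and recovered fragments gave 1043 in place of 344 for AM580 at 48 h.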

Other observations

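The neighbours of the members, chosen after their values were seen, did not all share the falls between E12.5 and P6w (edgeR). Beside Peg3, Usp29 fell by 5.76 on the log2 scale. Near Cdkn1c, Phlda2 fell by 3.499 and Kcnq1ot1 by 1.04, whereas Osbpl5 rose by 1.57, Cd81 rose by 0.77, and Slc22a18, at −0.01, did not pass the test. In the Dlk1 and Meg3 domain Rtl1 fell by 1.89, while Mirg (−0.42) and Dio3 (−0.91) did not pass the test. Near Ndn, Peg12 fell by 4.14 and Mkrn3 by 1.43, and Snrpn (0.29) and Ube3a (−0.28) did not pass the test.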
